A study of Homo sapiens with 18 samples.

Results

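The genes described here are the 3 lamin genes LMNA, LMNB1 and LMNB2, the lamin B receptor gene LBR, and 5 high-mobility-group (HMG) genes, HMGB1, HMGB2, HMGB3, HMGA1 and HMGN2. These 9 genes were taken by name from the 58884 gene identifiers of the count files, and all 9 had enough counts to be tested in every comparison. They and the gene lists set beside them were chosen with earlier results of these data known. T47D cells, an established line of luminal, estrogen receptor-positive breast cancer, were given niraparib or olaparib at 10 μmol/L, or DMSO as solvent control, for 48 hours, and their polyadenylated RNA was sequenced. The cells were of 2 genotypes, WT (cell line label T47D AAV) and PARP1 KO (cell line label T47D JL). Each of the 6 groups of genotype and treatment held 3 libraries, 18 in all. Each genotype is 1 line, and how the lines were made is not given in the sources used here, so the absence of PARP1 cannot be told apart from other differences between the lines. The design asks what the inhibitors do to these cells with and without PARP1.

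Niraparib and olaparib inhibit PARP1, an enzyme that binds DNA breaks and attaches ADP-ribose chains to proteins there. Lamins are intermediate filament proteins that form the meshwork under the inner nuclear membrane. LMNA gives rise to lamins A and C, which these gene counts do not separate, whereas LMNB1 and LMNB2 encode the farnesylated B-type lamins. LBR is an inner nuclear membrane protein that holds heterochromatin and B-type lamins at the nuclear edge and is also a sterol reductase. HMG proteins are abundant, non-histone chromatin proteins. HMGB1, HMGB2 and HMGB3 bend DNA through HMG boxes, HMGA1 binds the minor groove of AT-rich DNA, and HMGN2 binds nucleosomes. In senescent cells, LMNB1, LBR and HMGB2 are known to be low, and HMGB2 and LBR are also known to follow the cell cycle.

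Library totals were between 28890837 and 52251288 counts, with a median of 37363326. Each member had at least 1844 counts in every library. Replicates of a group differed by a chi-square per gene of 3.13 to 19. WT DMSO replicate 1 gave 19 and 17.5 against the other WT DMSO libraries, while these gave 3.28 against each other. WT niraparib replicate 2 gave 12.2 and 16.8, where the others of its group gave 3.41. PARP1 KO niraparib replicate 3 gave 11.7 and 14.7, where the others gave 3.13. PARP1 KO olaparib replicates 1 and 3 gave 18.3 against each other. Values are given as CPM, the counts relative to library size with TMM scaling, and levels are compared between genes only as CPM per kilobase of exon (RPKM). PARP1 itself was at 25.1 ± 1.39 CPM (SD, n = 9) in the PARP1 KO libraries and at 337 ± 26.8 CPM (SD, n = 9) in WT, or 7.45% of that in WT (P = 4.1e-05 in a 2-sided exact permutation test, the smallest it can give here). The residual transcript does not show whether protein was made. All 9 luminal markers, among them ESR1, GATA3 and KRT8, were at 112 CPM or more in every library. Among 8 markers of basal epithelium, fibroblasts, leukocytes and endothelium, 7 were at or below 0.853 CPM, and COL1A1 was at 88.3 to 153 CPM. Replicate libraries are labelled as separate samples. If they did not come from separate cultures, the P values measure a spread that may be technical.

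The members lie at separate places of GRCh38. LMNA spans chr1:156082573-156140089 on the plus strand, LMNB1 chr5:126776623-126837020 on the plus strand, and LMNB2 chr19:2427638-2456959 on the minus strand, where 0.85% of its exon bases are shared with MIR7108. LBR is at chr1:225401502-225428925 on the minus strand. HMGB1 is at chr13:30456704-30617597 and HMGB2 at chr4:173331695-173335125, both on the minus strand. HMGB3 is at chrX:150980509-150990771, HMGA1 at chr6:34236873-34246231 and HMGN2 at chr1:26472440-26476642, all on the plus strand. Several HMG genes have many processed pseudogenes, to which reads can be misassigned. Symbols mark 48 pseudogenes of HMGB1, 38 of HMGN2, 29 of HMGB3, 8 of HMGA1 and 1 of HMGB2. Their counts made up at most 3.23% of the counts of HMGB1 and its pseudogenes together, 2.76% for HMGN2, 1.32% for HMGA1 and 0.625% for HMGB3.

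In untreated WT cells HMGB2 and LMNA were the most abundant members per length. HMGB2 stood at 113 ± 3.23 RPKM and LMNA at 102 ± 1.73 RPKM (SD, n = 3 for each value here), followed by HMGN2 at 71.0 ± 1.21, LMNB1 at 57.8 ± 1.7 and LMNB2 at 36.6 ± 1.19 RPKM. HMGA1 at 33.3 ± 1.3 RPKM and HMGB3 at 31.8 ± 0.895 RPKM overlapped in their libraries. HMGB1 at 25.6 ± 0.733 RPKM and LBR at 14.9 ± 0.57 RPKM were lowest, and no other neighbours in this order overlapped. The low place of HMGB1 depends on its exon length of 7696 bases, which counts every annotated exon. With niraparib in WT, LMNA took the first place at 85.1 ± 1.02 RPKM and HMGB2 stood second at 56.9 ± 2.32 RPKM, without overlap. In the DMSO group of PARP1 KO these 2 genes overlapped, at 101 ± 4.67 RPKM for LMNA and 98.4 ± 5.03 RPKM for HMGB2. In all 6 groups HMGN2 and LMNB1 followed HMGB2 and LMNA, in that order, and LBR was last.

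Promoter sequence was looked up for the members in a RefSeq table (GRCh38.p14) that holds 250 bases before to 50 bases after each annotated start. It had entries for 8 of the 9 members, all but HMGB2, with 15 starts among them. CCAAT, or ATTGG on the other strand, is the box bound by the factor NF-Y and is common in promoters of genes of the cell cycle. At least 1 CCAAT was found in an entry of 6 of these 8 members (LMNA, LMNB1, HMGB1, HMGB3, HMGA1 and HMGN2), against 39.7% of the 27305 genes in the table. At least 3 were found in an entry of 2 members, HMGB1 and HMGB3, against 3.92% of all genes. A member with several starts had more chances to hold a match, and a match is only a description. TTTGAA, the core of the cell cycle gene homology region (TTCAAA on the other strand), was in 1 entry each of HMGB1, HMGB3 and LMNB2 and in 15.2% of all 35116 entries. TTTGGCGC and TTTCCCGC, forms of the E2F site searched on both strands, were, counted as 1 motif, in 2.27% of all entries, and among the members TTTCCCGC was in 1 entry of LMNA.

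The 250 bases before a start are shown for LMNB1, HMGB1 and HMGB3, because these had the largest changes with niraparib in WT among the members with an entry. Of the starts of each gene, the one with the most CCAAT matches was chosen, and each of these genes also has a start in the table with no match to any of the motifs. Each is written 5′ to 3′ on the strand of its gene, with matches to CCAAT (written ATTGG where it lies on the other strand) and to TTTGAA in capitals.
LMNB1, chr5:126776886-126777135, plus strand: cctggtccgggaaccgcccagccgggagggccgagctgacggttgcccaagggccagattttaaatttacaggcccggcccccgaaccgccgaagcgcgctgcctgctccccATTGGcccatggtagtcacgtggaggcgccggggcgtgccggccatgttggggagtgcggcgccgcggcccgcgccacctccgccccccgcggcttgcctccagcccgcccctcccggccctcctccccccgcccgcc
HMGB1, chr13:30465937-30466186, minus strand: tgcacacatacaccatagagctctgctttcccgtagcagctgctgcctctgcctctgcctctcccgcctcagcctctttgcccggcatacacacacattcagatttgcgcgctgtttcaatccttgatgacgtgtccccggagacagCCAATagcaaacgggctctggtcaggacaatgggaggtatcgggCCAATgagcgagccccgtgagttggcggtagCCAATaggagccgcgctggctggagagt
HMGB3, chrX:150983085-150983334, plus strand: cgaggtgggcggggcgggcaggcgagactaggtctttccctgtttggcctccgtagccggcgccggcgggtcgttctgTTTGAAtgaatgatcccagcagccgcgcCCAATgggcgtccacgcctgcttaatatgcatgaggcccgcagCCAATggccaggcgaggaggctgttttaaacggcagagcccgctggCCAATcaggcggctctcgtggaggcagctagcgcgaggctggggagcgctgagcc
LMNB1 held a single CCAAT on the opposite strand, which began 138 bases before the start. The HMGB1 sequence held 3 on its own strand, beginning 103, 59 and 28 bases before the start. HMGB3 held 3 as well, at 144, 101 and 55 bases, and a TTTGAA at 172 bases.

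With niraparib in WT, every one of the 9 genes fell. HMGB2 fell the most, to 0.502 of its DMSO level, followed by LMNB1 at 0.557, HMGB3 at 0.579 and HMGB1 at 0.605. HMGN2 fell to 0.665 and LBR to 0.673. The smallest decreases were those of LMNA, to 0.830, LMNB2, to 0.825, and HMGA1, to 0.879. A gene passed at an adjusted P value below 0.05 (edgeR quasi-likelihood test, Benjamini-Hochberg over all genes tested). All 9 members passed in the lower direction, whereas 18.1% of the 22446 genes tested did so and 38.0% passed in either direction. These shares include genes with far fewer counts than the members. With filterByExpr, a stricter filter on low counts, 4193 of 16827 genes passed as lower and 8615 in either direction. A change of more than 1.5-fold was also met by 5 members (HMGB2, LMNB1, HMGB3, HMGB1 and HMGN2), against 13.8% of all genes. The 3 niraparib and 3 DMSO libraries did not overlap for any of the 9, which held for 46.7% of all genes. The median log2 fold change was -0.59 over the members and -0.025 over all genes. The libraries are bulk, so fewer cells holding a transcript and less of it per cell cannot be told apart.

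**Figure D1:**
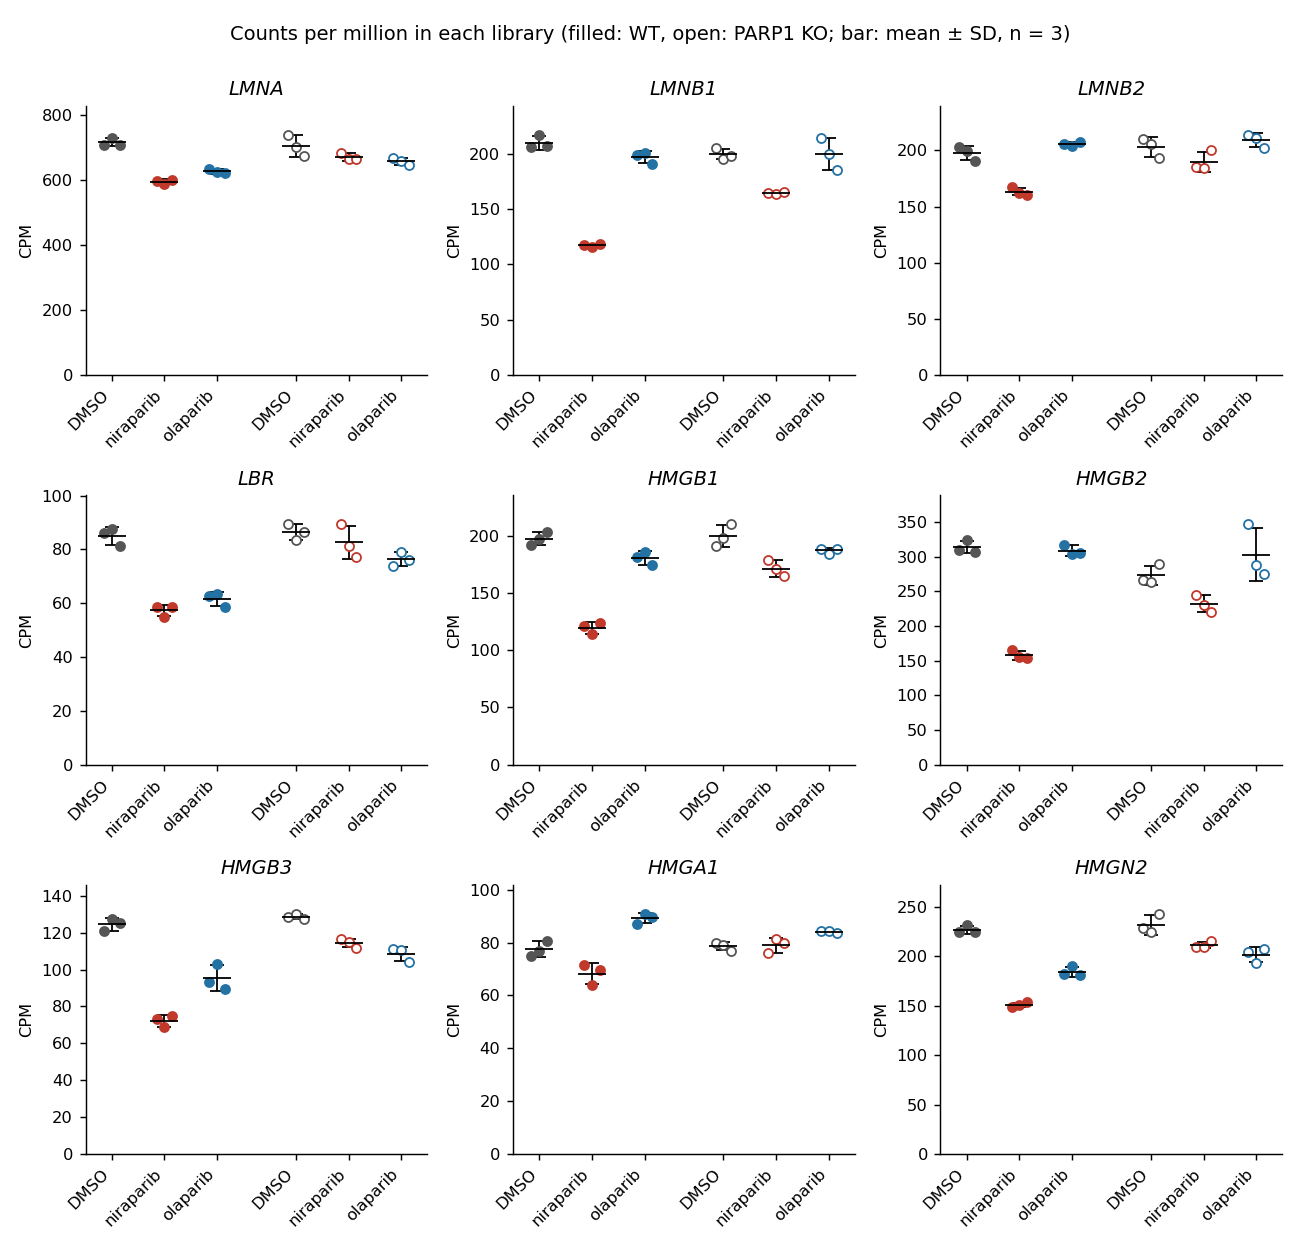
CPM (vertical axes, from 0) of the 9 genes in each of the 18 libraries, with WT as filled and PARP1 KO as open points and the mean ± SD of 3 libraries as bars. In WT the niraparib points lie below the DMSO points for all 9 genes, and in PARP1 KO the same 2 groups overlap for LMNA, LMNB2, LBR and HMGA1.

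Among the lamins, LMNB1 moved more than LMNA or LMNB2 with niraparib, in both genotypes. With olaparib in WT, LMNA moved the most and was the only lamin that passed. In WT, LMNB1 stood at 206, 217 and 207 CPM with DMSO, 117, 116 and 118 CPM with niraparib and 199, 201 and 191 CPM with olaparib. All niraparib libraries were far below both other groups, which lay close together. Niraparib lowered LMNB1, with a log2 fold change of -0.84 ± 0.0455 (SE, adjusted P = 3.1e-12), and with olaparib the value was -0.089 ± 0.045 (adjusted P = 0.19). In PARP1 KO, LMNB1 was at 205, 196 and 198 CPM with DMSO, 165, 163 and 165 CPM with niraparib and 214, 200.2 and 185 CPM with olaparib. The 3 niraparib libraries of PARP1 KO were again the lowest, but they stayed well above the WT niraparib libraries. The olaparib libraries spanned the DMSO range.

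LMNA, the source of lamins A and C, was at 708, 729 and 708 CPM with DMSO, 598, 586 and 599 CPM with niraparib and 633, 624 and 620.4 CPM with olaparib in WT. Both drug groups lay below DMSO, niraparib the lower of these, with no overlap among the 3 groups. The log2 fold changes were -0.27 ± 0.0442 for niraparib (adjusted P = 3.8e-05) and -0.19 ± 0.0442 for olaparib (adjusted P = 0.0041). In PARP1 KO it was at 738, 699 and 673 CPM with DMSO, 683, 664 and 663 CPM with niraparib and 667, 657 and 644 CPM with olaparib, and the niraparib libraries overlapped those of DMSO. LMNB2, the other B-type lamin, was at 203, 199 and 191 CPM with DMSO, 167, 162 and 161 CPM with niraparib and 205, 204 and 207 CPM with olaparib in WT. Only the niraparib libraries stood apart by more than a few CPM, with a log2 fold change of -0.28 ± 0.0453 (adjusted P = 3.4e-05), and olaparib, with all libraries slightly above those of DMSO, gave 0.059 ± 0.0452 (adjusted P = 0.42). Its PARP1 KO values were 210.0, 205 and 193 CPM with DMSO, 185, 184 and 200.0 CPM with niraparib and 214, 211 and 202 CPM with olaparib, with overlap between each drug and DMSO.

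The unequal change of the lamins showed in their ratios per length within each library. In WT the ratio of LMNB1 to LMNA was 0.558, 0.573 and 0.563 with DMSO, 0.378, 0.379 and 0.38 with niraparib and 0.604, 0.62 and 0.591 with olaparib. The means were 0.565 ± 0.00724, 0.379 ± 0.0011 and 0.605 ± 0.0147 (SD, n = 3), so niraparib and olaparib lay on opposite sides of DMSO without overlap. In PARP1 KO the means were 0.546 ± 0.0179, 0.472 ± 0.00765 and 0.585 ± 0.0326 in the same order, with the niraparib libraries lowest and those of olaparib and DMSO overlapping. The ratio of LMNB2 to LMNA was 0.358 ± 0.0121 with DMSO, 0.356 ± 0.00811 with niraparib and 0.425 ± 0.00667 with olaparib in WT, where DMSO and niraparib overlapped. The PARP1 KO means were 0.373 ± 0.00602, 0.367 ± 0.0211 and 0.413 ± 0.00591. The ratios are a description, and no test was run on them.

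**Figure D2:**
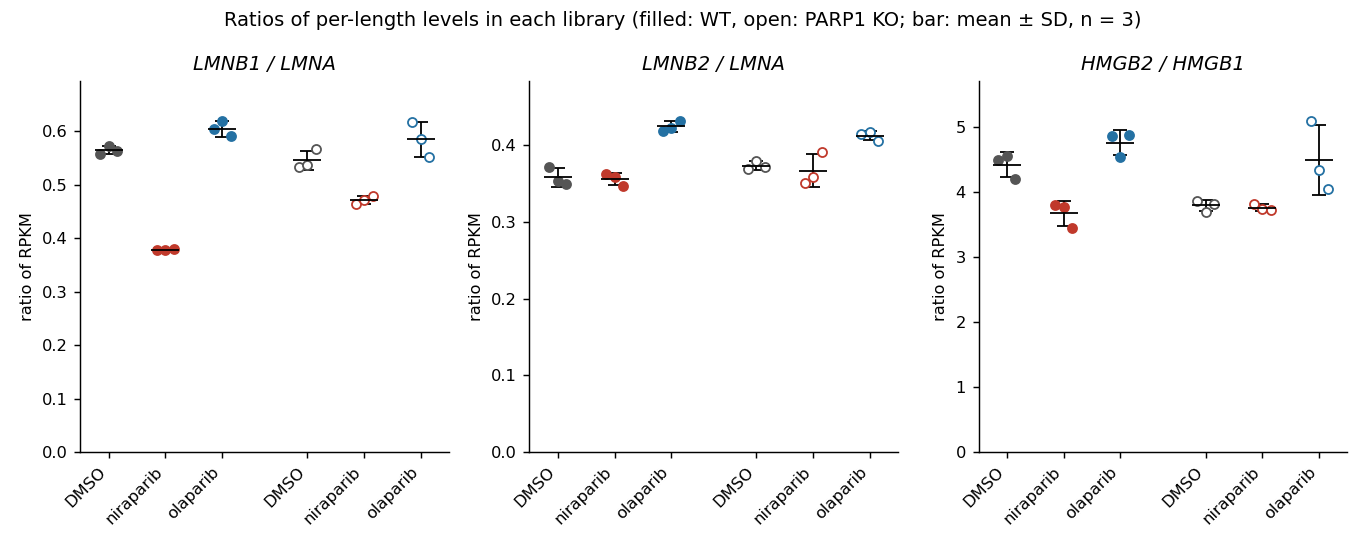
Ratios of RPKM values (vertical axes, from 0) of LMNB1 to LMNA, LMNB2 to LMNA and HMGB2 to HMGB1 in each library, with WT as filled and PARP1 KO as open points and bars for the mean ± SD of 3 libraries. The ratio of LMNB1 to LMNA is 0.379 ± 0.0011 in the WT niraparib group and 0.565 ± 0.00724 in the WT DMSO group, while the ratio of LMNB2 to LMNA overlaps between these groups.

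LBR was lowered by both drugs in WT, to similar levels. It was at 86.0, 87.5 and 81.2 CPM with DMSO, 58.4, 54.9 and 58.5 CPM with niraparib and 62.6, 63.4 and 58.5 CPM with olaparib, and the niraparib and olaparib libraries met at 58.5 CPM. The log2 fold changes were -0.57 ± 0.053 for niraparib (adjusted P = 1.5e-08) and -0.46 ± 0.0531 for olaparib (adjusted P = 2.2e-06). In PARP1 KO, LBR was at 89.3, 83.6 and 86.3 CPM with DMSO, 89.3, 81.4 and 77.1 CPM with niraparib and 73.8, 79.0 and 76.0 CPM with olaparib. Niraparib and DMSO libraries overlapped there, while the olaparib libraries were all below those of DMSO, with a log2 fold change of -0.18 ± 0.057 that missed the threshold (adjusted P = 0.051). Over the alternative fits of that value the adjusted P ran from 0.026 to 0.16, and it passed in 6 of them, DESeq2 included.

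HMGB2, the HMG-box protein whose level is tied to the cell cycle, was at 310.4, 324 and 307 CPM with DMSO, 165, 155 and 154 CPM with niraparib and 318, 304 and 306 CPM with olaparib in WT. The niraparib libraries stood far below, and olaparib and DMSO libraries overlapped. The log2 fold change was -0.99 ± 0.0484 with niraparib (adjusted P = 5.7e-13) and -0.018 ± 0.0477 with olaparib (adjusted P = 0.84). In PARP1 KO the values were 266, 264 and 289 CPM with DMSO, 245, 230.3 and 221 CPM with niraparib and 347, 288 and 275 CPM with olaparib. Here the niraparib libraries were lowest without overlap, and olaparib replicate 1 lay above every other library of the 18.

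HMGB1, an abundant nuclear protein that also acts as an alarm signal outside cells, stood at 191, 197 and 203 CPM with DMSO, 121, 114 and 124 CPM with niraparib and 181, 186 and 174 CPM with olaparib in WT. Niraparib gave a log2 fold change of -0.73 ± 0.0479 (adjusted P = 7.4e-11). Olaparib gave -0.12 ± 0.0475, with all olaparib libraries below those of DMSO and an adjusted P of 0.075, which became 0.043 without WT DMSO replicate 1 and 0.035 with DESeq2. The PARP1 KO libraries were at 191, 198 and 209.8 CPM with DMSO, 178, 171 and 164 CPM with niraparib and 189, 184 and 188 CPM with olaparib, and both drug groups lay below DMSO there. HMGB3, the X-linked member of the family, was at 121, 128 and 125 CPM with DMSO, 73.3, 68.6 and 74.6 CPM with niraparib and 93.1, 103 and 89.7 CPM with olaparib in WT. Its 3 groups were separate, with olaparib between the others. The log2 fold changes were -0.79 ± 0.0551 for niraparib (adjusted P = 1.9e-10) and -0.38 ± 0.0547 for olaparib (adjusted P = 3.2e-05). In PARP1 KO it was at 128, 130.2 and 127 CPM with DMSO, 117, 115 and 112 CPM with niraparib and 111, 111 and 104 CPM with olaparib, again with both drug groups below DMSO.

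Per length, HMGB2 made up most of the 3 HMGB transcripts in every group. The shares and the ratio given here depend on the exon lengths, which count every annotated exon. These are 7696 bases for HMGB1, 2775 for HMGB2 and 3914 for HMGB3. Its share of the summed RPKM of HMGB1, HMGB2 and HMGB3 in WT was 66.3% ± 0.729 with DMSO, 62.6% ± 1.24 with niraparib and 70.0% ± 1.33 with olaparib (SD, n = 3). The ratio of HMGB2 to HMGB1 was 4.42 ± 0.19 with DMSO, 3.67 ± 0.194 with niraparib and 4.76 ± 0.19 with olaparib in WT. In PARP1 KO it was 3.8 ± 0.0898, 3.76 ± 0.0496 and 4.5 ± 0.543 in the same order, where DMSO and niraparib overlapped. The shares of HMGB3 in WT were 18.6% ± 0.27, 20.3% ± 0.66 and 15.3% ± 1.01 for DMSO, niraparib and olaparib.

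HMGA1 was the only member that rose with a drug and passed, which it did with olaparib in WT. In WT it was at 74.8, 76.9 and 80.7 CPM with DMSO, 71.5, 63.8 and 69.5 CPM with niraparib and 87.1, 90.9 and 89.5 CPM with olaparib. The olaparib libraries were above those of DMSO and the niraparib libraries below them, without overlap. The log2 fold change was -0.19 ± 0.0534 with niraparib (adjusted P = 0.0077) and 0.21 ± 0.0533 with olaparib (adjusted P = 0.0083). In PARP1 KO, HMGA1 was at 80.0, 79.2 and 76.9 CPM with DMSO, 75.9, 81.4 and 79.8 CPM with niraparib and 84.5, 84.4 and 83.5 CPM with olaparib, with overlap between niraparib and DMSO and with the olaparib libraries above both. HMGN2 was at 224, 231 and 225 CPM with DMSO, 149, 150.4 and 153 CPM with niraparib and 182, 190.0 and 181 CPM with olaparib in WT, in 3 separate groups with niraparib lowest. Its log2 fold changes were -0.59 ± 0.044 for niraparib (adjusted P = 5.4e-10) and -0.30 ± 0.0438 for olaparib (adjusted P = 4.8e-05). The PARP1 KO values of HMGN2 were 228, 224 and 243 CPM with DMSO, 209, 209.5 and 215 CPM with niraparib and 205, 193 and 207 CPM with olaparib, with both drugs below DMSO.

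Olaparib in WT moved 5 members past the threshold. LMNA, LBR, HMGB3 and HMGN2 fell, as did 7.77% of all genes, and HMGA1 rose, as did 11.2%. The fold levels against DMSO were 0.878, 0.727, 0.768 and 0.815 for the former and 1.15 for HMGA1, and none exceeded 1.5-fold. Of all genes 1745 fell, but 1139 and 1157 without WT olaparib replicates 1 and 3. Likewise 2525 rose, but 1756 and 1870 without these. The 95% intervals of the log2 fold changes that did not pass were -0.18 to 0.005 for LMNB1, -0.035 to 0.15 for LMNB2, -0.22 to -0.025 for HMGB1 and -0.12 to 0.081 for HMGB2. The median over the 9 genes was -0.12, beside -0.017 over all genes. The niraparib and olaparib comparisons share the DMSO libraries, so their values are given side by side.

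**Figure D3:**
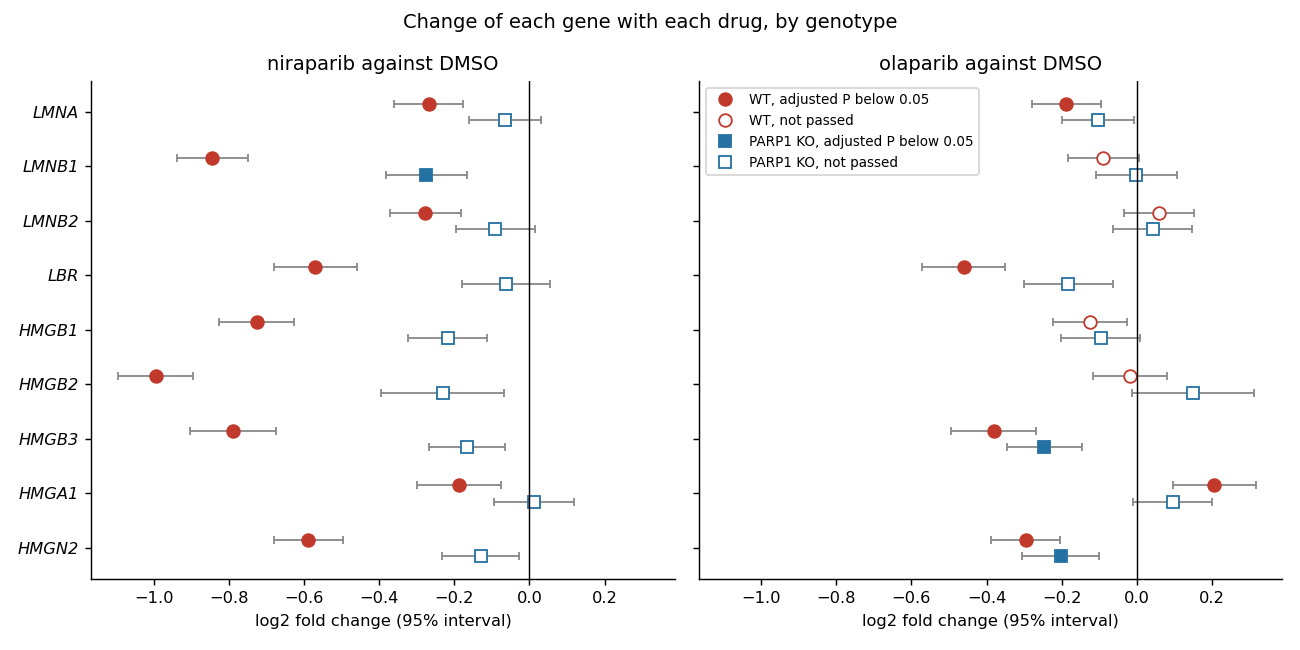
Log2 fold change against DMSO (horizontal axis) with its 95% interval for each gene, niraparib on the left and olaparib on the right, with circles for WT, squares for PARP1 KO and filled symbols for an adjusted P value below 0.05. With niraparib all 9 WT symbols are filled and below 0, against 1 in PARP1 KO (LMNB1), and with olaparib 5 are filled in WT and 2 in PARP1 KO.

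The drugs were also compared directly, at the same dose and time. In WT, 7 members were lower with niraparib than with olaparib, where 32.2% of all genes differed in either direction. HMGB2 had the largest difference, a log2 fold change of -0.98 ± 0.0484 (adjusted P = 2.2e-12), followed by LMNB1 with -0.76 ± 0.0456 (adjusted P = 4.4e-11) and HMGB1 with -0.60 ± 0.0479 (adjusted P = 3.1e-09). These 3 differed by more than 1.5-fold, as did 8.95% of all genes. Smaller differences passed for HMGB3 (-0.41, adjusted P = 4.7e-06), HMGA1 (-0.39, adjusted P = 5e-06), LMNB2 (-0.34, adjusted P = 4.5e-06) and HMGN2 (-0.29, adjusted P = 1.7e-05). No difference was detected for LMNA, whose log2 fold change had a 95% interval of -0.17 to 0.011, or for LBR, with -0.22 to 0.001. The median over the members was -0.39, beside 0.02 over all genes.

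In PARP1 KO, 1 member passed with niraparib, LMNB1, whose log2 fold change was -0.28 ± 0.0519 (adjusted P = 0.032). Among all genes 0.109% passed, 24 of 22037, and without single libraries 8 to 11, or 26 without niraparib replicate 3. The LMNB1 call was lost when a single library was left out in 5 of 6 cases, all but niraparib replicate 3, with adjusted P values up to 0.2. HMGB2 (-0.23, adjusted P = 0.34), HMGB1 (-0.22, adjusted P = 0.097), HMGB3 (-0.17, adjusted P = 0.23) and HMGN2 (-0.13, adjusted P = 0.42) had log2 fold changes below 0 that did not pass. LMNB2 (-0.091), LMNA (-0.065), LBR (-0.062) and HMGA1 (0.012) were closer to 0. Libraries of niraparib and DMSO did not overlap for 5 members (LMNB1, HMGB1, HMGB2, HMGB3 and HMGN2), all lower with niraparib, and for 15.6% of all genes. HMGB1 passed in DESeq2 (adjusted P = 0.016) and in the fit of all 18 libraries (adjusted P = 0.034). With no filter on low counts, HMGB1 (adjusted P = 0.011) and HMGB2 (adjusted P = 0.0037) passed in edgeR. The median over the 9 genes was -0.13, beside 0.005 over all genes.

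With olaparib in PARP1 KO, HMGB3 and HMGN2 fell, where 8.29% of all genes passed. These were 1827 genes, but 849 without olaparib replicate 2 and 792 and 933 without DMSO replicates 2 and 3. The log2 fold change was -0.25 ± 0.0485 for HMGB3 (adjusted P = 0.003) and -0.20 ± 0.0495 for HMGN2 (adjusted P = 0.013). HMGN2 no longer passed without PARP1 KO DMSO replicate 3 (adjusted P = 0.089) or without olaparib replicate 2 (adjusted P = 0.067). Between the drugs in PARP1 KO, LMNB1 and HMGB2 were lower with niraparib than with olaparib, as 10.0% of all genes differed (2203, but 1142 without niraparib replicate 2 and 1273 without olaparib replicate 2). Their log2 fold changes were -0.27 ± 0.0518 (adjusted P = 0.0017) and -0.38 ± 0.0758 (adjusted P = 0.0058). Without olaparib replicate 1, in which HMGB2 was highest, the HMGB2 call still passed, as it did in all 6 fits that left out a library, with adjusted P values up to 0.033. LMNB2 missed the threshold (adjusted P = 0.1) and passed only without niraparib replicate 3 (adjusted P = 0.039).

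Without drug, no member passed between the genotypes. In the DMSO groups 0 of 9 passed in edgeR, against 1.39% of all genes, and 0 passed in DESeq2. Of all genes 344 passed, but 51 without WT DMSO replicate 1 and 108, 93 and 144 without PARP1 KO DMSO replicates 1, 2 and 3, with 0 members passing in each. At an unadjusted P value below 0.05 there was 1, HMGB2, with a log2 fold change of -0.20 ± 0.0617 for PARP1 KO against WT (adjusted P = 0.11, 0.0063 with no filter on low counts) and no overlap of its libraries. The 95% intervals of the other 8 members lay within -0.17 and 0.15.

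The response to niraparib differed between the genotypes for most members. The interaction is the log2 fold change with niraparib in PARP1 KO minus that in WT, so positive values mark a smaller decrease in PARP1 KO. It passed in the positive direction for 8 of 9 genes, while 10.4% of all genes passed in that direction and 22.9% in either. HMGB2 had 0.76 ± 0.0877 (adjusted P = 1e-07) and HMGB3 0.62 ± 0.0731 (adjusted P = 3.3e-08). These 2 exceeded 1.5-fold, as did 8.88% of all genes. LMNB1 had 0.56 ± 0.0685 (adjusted P = 5.9e-08), HMGB1 0.50 ± 0.0689 (adjusted P = 5.6e-07), LBR 0.50 ± 0.0786 (adjusted P = 5.6e-06) and HMGN2 0.45 ± 0.0646 (adjusted P = 1.1e-06). The median was 0.50 over the members and 0.033 over all genes.

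The interaction was smaller and less stable for the remaining genes. LMNA had 0.20 ± 0.062 (adjusted P = 0.017), which became 0.062 without PARP1 KO DMSO replicate 3. LMNB2 had 0.18 ± 0.067 (adjusted P = 0.048) and kept its call in 4 of the 12 fits that left out a library, those without PARP1 KO niraparib replicates 1 or 2, PARP1 KO DMSO replicate 1 or WT DMSO replicate 3. Its adjusted P reached 0.15 without PARP1 KO niraparib replicate 3 or PARP1 KO DMSO replicate 3. The LMNB2 call was also lost with the replicate number as a block (adjusted P = 0.052) and with no filter on low counts (adjusted P = 0.071). It was lost as well with only the groups compared in the fit (adjusted P = 0.082). HMGA1 missed the threshold, with 0.19 ± 0.0729 (adjusted P = 0.053). It passed without PARP1 KO niraparib replicate 1, WT niraparib replicate 1 or WT DMSO replicate 1 (adjusted P between 0.035 and 0.042), and in DESeq2 (adjusted P = 0.017).

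For olaparib the interaction passed for LBR alone, with 0.28 ± 0.0787 (adjusted P = 0.046), where 2.27% of all genes passed. These were 559 genes, and between 284 (without PARP1 KO olaparib replicate 2) and 899 (without PARP1 KO olaparib replicate 1) when single libraries were left out. That call was kept in 2 of 12 fits that left out a library, without PARP1 KO olaparib replicate 1 or WT DMSO replicate 3, and its adjusted P was up to 0.14. The 95% intervals of the other members all included 0 and reached from -0.25 (HMGA1) to 0.35 (HMGB2).

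Other genes of the nuclear envelope were examined with niraparib in WT. Of 21 partners of the lamina (LEM-domain proteins, the SUN and nesprin proteins that bridge the envelope, torsins and HP1 proteins), 9 fell, 2 rose and 10 did not pass, where 18.1% of all genes fell and 19.9% rose, with a median log2 fold change of 0.049. SUN2, an inner-membrane protein that anchors nesprins, fell the most. It was at 303, 313 and 302 CPM with DMSO, 151, 133 and 144 CPM with niraparib and 251, 246 and 253 CPM with olaparib in WT and at 301, 283 and 281 CPM with DMSO, 297, 279 and 285 CPM with niraparib and 298, 291 and 262 CPM with olaparib in PARP1 KO. The log2 fold change was -1.10 ± 0.0509 in WT (adjusted P = 2.4e-13) and -0.002 ± 0.0516 in PARP1 KO (adjusted P = 1), and the interaction was 1.09 ± 0.0727 (adjusted P = 4.5e-14). CBX5, the heterochromatin protein HP1-alpha, fell by 0.68 and NRM, the inner-membrane protein nurim, by 0.65 on the log2 scale. TMEM43, an inner-membrane protein that binds lamins and emerin, rose by 0.76, and SYNE3, which encodes nesprin-3, by 0.74. In PARP1 KO, 0 of the 21 passed with niraparib in edgeR, 4 had an unadjusted P value below 0.05 and 1 passed in DESeq2.

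Of 5 genes that process prelamins by farnesylation, cleavage and methylation, 1 passed as higher with niraparib in WT, near the 19.9% of all genes that did so. It was the protease RCE1, with 0.18 ± 0.0694 (adjusted P = 0.045). RCE1 did not pass in DESeq2, nor without WT niraparib replicate 1 or 2 or WT DMSO replicate 2 or 3, where its adjusted P was up to 0.3, and without WT niraparib replicate 2 its log2 fold change was 0.097. TM7SF2 and DHCR7 encode sterol reductases of the same family as LBR. Both fell with niraparib in WT, DHCR7 with a log2 fold change of -0.43 ± 0.0546 (adjusted P = 1.4e-06) and TM7SF2 with -0.18 ± 0.0667 (adjusted P = 0.046). The TM7SF2 call was lost without WT niraparib replicate 1 or 2 or WT DMSO replicate 2 or 3, with adjusted P values up to 0.19. In PARP1 KO, 0 of the 5 and 0 of the 2 passed with niraparib in edgeR and DESeq2, and 1 of the 5 had an unadjusted P value below 0.05.

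Of the 6 HMG genes outside the members, 5 could be tested in WT and 3 fell with niraparib, where 18.1% of all genes fell. These were the nucleosome-binding genes HMGN5 (-0.69, adjusted P = 9.6e-07), HMGN1 (-0.35, adjusted P = 3.4e-06) and HMGN3 (-0.35, adjusted P = 0.00029). HMGN4 (0.065) and HMGA2 (-0.74) did not pass, and HMGA2 was at most 1.44 CPM in any WT library. In PARP1 KO, 0 of the 5 passed with niraparib in edgeR or DESeq2, and 0 had an unadjusted P value below 0.05.

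Genes known to rise in senescent cells were examined beside the members. Of 17 such genes, 11 could be tested in WT, of which 6 rose with niraparib, 1 fell and 4 did not pass, while 19.9% of all genes rose. CDKN1A, the cyclin-dependent kinase inhibitor p21, was at 50.5, 64.7 and 64.5 CPM with DMSO, 269, 288 and 289.5 CPM with niraparib and 138, 134 and 134 CPM with olaparib in WT and at 59.9, 65.8 and 65.7 CPM with DMSO, 74.8, 81.9 and 56.1 CPM with niraparib and 84.6, 73.1 and 70.5 CPM with olaparib in PARP1 KO. The niraparib libraries of WT stood above all others, with a log2 fold change of 2.23 ± 0.0746 (adjusted P = 3.1e-12), and the interaction was -2.08 ± 0.178 (adjusted P = 1.3e-06). GDF15, a secreted stress factor, rose by 1.75 and CDKN2B, the inhibitor p15, by 0.27. GLB1, the lysosomal beta-galactosidase behind the usual senescence stain, fell, with a log2 fold change of -0.22 ± 0.0685 (adjusted P = 0.016), a call lost without WT DMSO replicate 2 (adjusted P = 0.066) or 3 (adjusted P = 0.069). Of the genes that rose, CCL2, named after its values were seen, was below 1 CPM in every WT library. In PARP1 KO, 0 of 10 genes tested passed with niraparib in edgeR or DESeq2, and 1 had an unadjusted P value below 0.05.

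Many cell cycle genes moved with niraparib in WT. Of 46 G2/M genes, from which HMGB2 and LBR had been left out, 44 fell with niraparib in WT, beside 18.1% of all genes, with a median log2 fold change of -1.06. The mitotic kinase gene PLK1 (-2.46), the cyclin gene CCNB1 (-2.19) and the spindle gene PSRC1 (-2.00) fell the most. The summed level of the 46 genes was 11058 to 11921 CPM in the WT DMSO libraries, 5805 to 6093 CPM with niraparib and 9893 to 10057 CPM with olaparib, and 9726 to 12014 CPM over the 9 PARP1 KO libraries. Of 29 S phase genes tested (of 30 listed), 23 rose with niraparib in WT, beside 19.9% of all genes, with a median of 0.46, led by DTL (1.48), EXO1 (1.25) and CLSPN (1.09). In PARP1 KO, 1 of the 46 G2/M genes (ANP32E, -0.31, adjusted P = 0.0092) and 1 of the 29 S phase genes (RRM2, -0.26, adjusted P = 0.032) fell with niraparib, both named after their values were seen. At an unadjusted P value below 0.05 there were 12 of the 46 and 12 of the 29, beside 2014 of all 22037 genes, and 1 and 3 passed in DESeq2, beside 104 of all genes. Leaving out single libraries kept the ANP32E call in 3 of 6 fits and the RRM2 call in 0 of 6. With olaparib in WT, 29 G2/M genes fell and 1 rose, while 19 S phase genes rose and 1 fell, beside 7.77% of all genes that fell and 11.2% that rose. Without drug, 14 of the 29 S phase genes passed as higher in PARP1 KO than in WT, against 0.811% of all genes, which were 200. Without WT DMSO replicate 1 there were 4, beside 37 of all genes. Without PARP1 KO DMSO replicate 1 there were 9, beside 55. The summed level of the 30 listed was 2534 to 2573 CPM in PARP1 KO against 2022 to 2279 CPM in WT, both with DMSO. The niraparib interaction passed in the positive direction for 44 G2/M genes and in the negative direction for 24 S phase genes and 1 G2/M gene (SMC4), as it did for 12.5% of all genes. The part of the cell cycle in the changes of the members was not tested.

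With niraparib in WT, 8 of 9 luminal markers fell, beside 18.1% of all genes, by up to 0.89 on the log2 scale for the progesterone receptor gene PGR, 0.74 for GATA3 and 0.56 for ESR1. Their summed level was 13763 to 14439 CPM with DMSO, 9866 to 10931 CPM with niraparib and 10735 to 11233 CPM with olaparib. With niraparib in WT, 0 of the 4 markers of other cell types that could be tested passed in edgeR or DESeq2, and 0 had an unadjusted P value below 0.05.

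**Figure D4:**
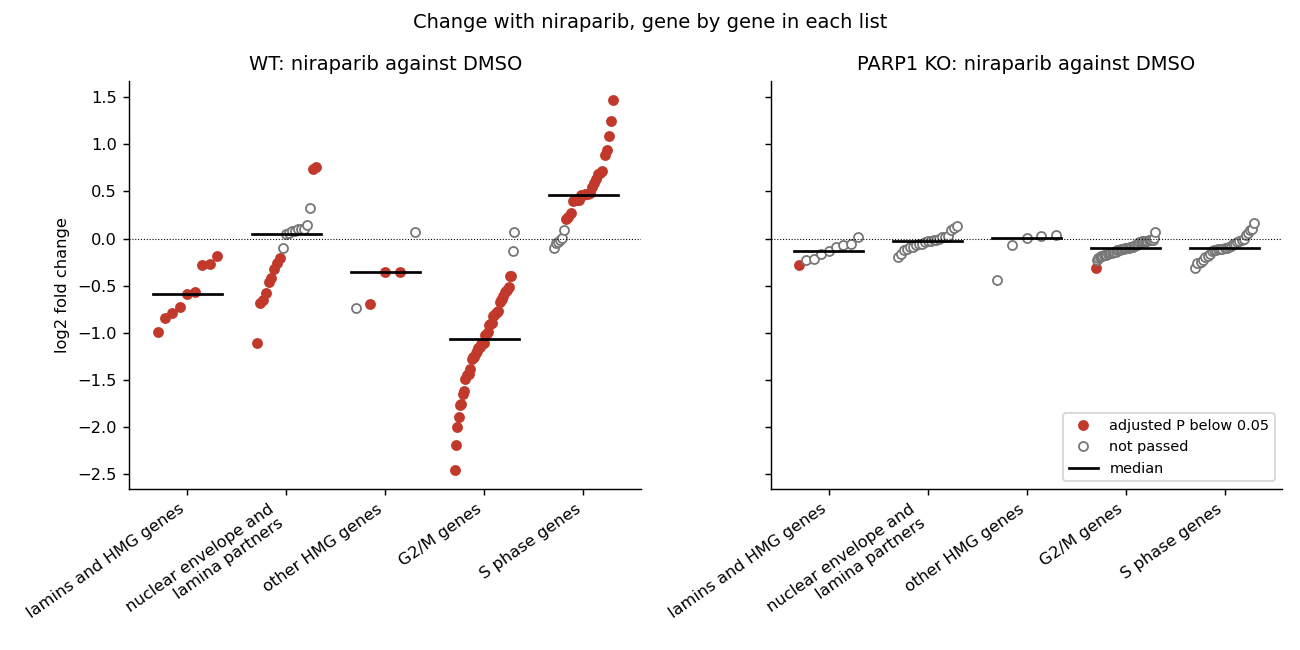
Log2 fold change with niraparib (vertical axis) of each gene in 5 lists, WT on the left and PARP1 KO on the right, with filled points for genes that passed and a bar at the median of each list. In WT the medians are -0.59 for the lamin and HMG genes, 0.049 for the partners of the lamina, -0.35 for other HMG genes, -1.06 for G2/M genes and 0.46 for S phase genes, and in PARP1 KO they lie between -0.13 and 0.003.

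The members did not share 1 pattern over the 18 libraries. As a description, Pearson's r of log2 CPM was highest between HMGB3 and HMGN2 (0.978) and between LMNB1 and HMGB2 (0.973), and lowest between LBR and HMGA1 (0.153). These points share the 6 groups and so the treatments. The closest genes were sought among the 13526 identifiers that averaged 1 CPM or more, passing over members and identifiers without a symbol. Those closest to HMGB2 were NEURL1B (r = 0.985), TOB1 (0.984) and CKAP2 (0.982). For LMNB1 they were EEIG2 (0.983), NNT (0.982) and DBF4 (0.98), and for HMGB3 they were LDHA (0.986), DEPDC1B (0.982) and FKBP4 (0.982).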

How the data were processed

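Polyadenylated RNA of T47D cells was sequenced in 18 libraries, 3 in each of 6 groups of genotype and treatment, and groups were taken from the sample labels. The deposited values are raw counts per gene, which the authors made with STAR on hg38 and featureCounts (version 2.0.0 in the file headers, Ensembl release 96 annotation), after trimming of reads and with reads over more than 1 gene left uncounted. The methods say that PCR duplicates were identified and quantified, and the output names in the headers say deduplicated, so whether duplicates were left out of the counts is not settled here. The deposited counts hold 58884 identifiers, 58472 of them with a symbol.

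Each fit took genes whose counts summed to more than 10 over its libraries, and used the quasi-likelihood test of edgeR 4.0.16 (R 4.3.3, TMM scaling, robust dispersions) and Benjamini-Hochberg adjustment over all genes tested. Drugs were compared within each genotype in a fit of its 9 libraries, and genotypes and interactions in a fit of all 18. A gene passed at an adjusted P value below 0.05. The study used DESeq2, which was kept as an alternative (DESeq2 1.42.0), and wrote its limit on the fold change both as 1.5 on the log2 scale and as 1.5-fold, so counts at each are given. The other alternatives were RLE scaling, filterByExpr or no filter, the replicate number as a block, counts summed with named pseudogenes, other sets of libraries in the fit and leaving out each library in turn. RPKM values are CPM per kilobase of the union of annotated exons. Interactions are differences of log2 fold changes, and intervals are at 95%. Likeness between genes was measured on log2 CPM with a prior count of 2. The scripts were tested on simulated data.

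The members and the lists were chosen with earlier results of these data known. Named were all members, PARP1, the paralogs of LBR, up to 3 genes per list and direction with the largest change among those that passed with niraparib in WT and averaged 1 CPM or more, and the 3 genes most like a member. Outside this rule, KRT8, COL1A1, HMGN4, HMGA2, SMC4, ANP32E, RRM2 and CCL2 were named after their values were seen.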

Additional observations from a re-analysis of the deposited data

Results flagged for a closer look

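For 8 members the change with niraparib differed between the genotypes by the interaction test (edgeR quasi-likelihood test, Benjamini-Hochberg adjustment, PARP1 KO minus WT on the log2 scale). The differences were 0.758 for HMGB2, 0.618 for HMGB3, 0.563 for LMNB1, 0.503 for HMGB1, 0.502 for LBR, 0.453 for HMGN2, 0.197 for LMNA and 0.18 for LMNB2, and each decrease was smaller in PARP1 KO. For olaparib the change of LBR differed by 0.283 in the same direction. These 9 were among 18 interactions tested over the members.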

How the results depend on the processing

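Counts of members that passed were recomputed under every alternative. Requiring a change of more than 1.5-fold gave 5 members for niraparib and 0 for olaparib in WT, 3 for niraparib against olaparib in WT, 0, 0 and 0 for the same comparisons in PARP1 KO, 2 for the niraparib interaction and 0 for the olaparib interaction, and an absolute log2 fold change above 1.5 gave 0 in each. For niraparib in PARP1 KO, where 1 passed, there were 3 with no filter on low counts, 2 with DESeq2, 2 with all 18 libraries in the fit and 0 with the replicate block. For the genotypes under DMSO 1 passed with no filter. Leaving out each library in turn gave 9 for niraparib, 5 to 6 for olaparib and 7 for niraparib against olaparib in WT, 0 to 1, 1 to 2 and 2 to 3 in PARP1 KO, 0 for the genotypes under DMSO, 6 to 9 for the niraparib interaction and 0 to 1 for the olaparib interaction. The cause was not tested.

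Log2 fold changes of members changed sign only where the value had not passed. Without single libraries they ran from -0.043 to 0.008 for HMGB2 with olaparib in WT, from -0.011 to 0.043 for HMGA1 with niraparib in PARP1 KO and from -0.054 to 0.049 for LMNB1 with olaparib in PARP1 KO (0.003 with only the groups compared). Between the genotypes under DMSO the ranges were -0.058 to 0.009 for LMNA, -0.005 to 0.049 for LBR, -0.018 to 0.051 for HMGB1, -0.00039 to 0.053 for HMGA1 and -0.002 to 0.057 for HMGN2, and for the olaparib interaction -0.048 to 0.013 for LMNB2 and -0.003 to 0.069 for HMGB1.

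Replicate numbers recur in all groups, but over 45 pairs of libraries with the same number the correlations of their deviations ran from -0.54 to 0.552, and 15 exceeded 0.1, so the numbers were not taken to pair libraries. With the replicate block 9, 5 and 7 members passed in the comparisons within WT, 0, 2 and 2 in PARP1 KO, 0 between genotypes, and 7 and 1 for the niraparib and olaparib interactions.

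Over all genes, the number that passed for niraparib in PARP1 KO (24) was 11 with the block, 104 with DESeq2, 184 with no filter and 8 to 26 without single libraries. No scaling moved the median of all genes by more than 0.1.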
